A study of Mus musculus with 15 samples.

Results

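The Nkx genes studied here were 10 homeobox genes of the mouse, and their chromatin was read as the called peaks that lay near them. The members were all intervals of 3 deposited peak lists with any part within 30 kb of a listed position of each gene in build mm9. This gave 24 intervals of 2466 in all, with 9 of 902 EZH2 peaks, 7 of 438 FLAG peaks and 8 of 1126 H3K27me3 peaks. The deposited H3K27me3 list is labelled residual K27me3, and the label does not say relative to what. The series used chromatin immunoprecipitation with sequencing in mouse embryonic fibroblasts to locate EZH2, EZHIP and the histone mark H3K27me3, in 15 libraries from 5 cell conditions and 3 antibodies. The lists came from 3 libraries of the condition labelled EEDflox_wtORF, 1 for each antibody. All 3 share the same cells, which carry floxed EED that was not deleted and make wild-type EZHIP stably from a lentivirus, with no drug named in their labels. The promoter that drives EZHIP is not given in the sources used here. Libraries treated with DMSO or tazemetostat, libraries of the EED-null line (a single clone) and libraries with EZHIP M406E were not analysed here. No list came from cells without EZHIP, so the values below describe 1 condition and carry no effect of EZHIP. There were no replicates, and each list holds positions only, so read depth and enrichment are unknown. The cell type could not be checked against marker genes, since no expression was measured.

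Nkx genes encode homeodomain transcription factors of the NK class that set cell identity in the embryo. Nkx2-1 acts in thyroid, lung and ventral forebrain, Nkx2-5 in the heart, Nkx3-2 in cartilage and the axial skeleton, and Nkx6-1 in pancreatic beta cells and ventral neural progenitors. In cells of other lineages such genes are classical targets of the Polycomb repressive complex PRC2. Its catalytic subunit EZH2 methylates lysine 27 of histone H3, its subunit EED binds the finished trimethyl mark and stimulates the enzyme, and H3K27me3 is associated with silent genes. EZHIP is a protein inhibitor of PRC2. The FLAG signal is taken here to be tagged EZHIP, since EZHIP stands in the design beside EZH2 and the mark and has no other antibody.

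PRC2 is known to be recruited at CpG-rich starts of silent developmental genes, so the CpG content before the Nkx starts is shown first. RefSeq windows of 250 bases before the gene start (build GRCm38.p6) were found for 8 of the 10 genes, and there was no entry for Nkx2-6 and Nkx6-3. The 4 windows below belong to the neighbouring gene pairs on chromosomes 12 and 2, whose members carried peaks of unlike width. They are written 5′ to 3′ on the strand of the gene, with each CG dinucleotide in capitals. The Nkx2-1 window is chr12:56536909-56537158 and the Nkx2-9 window is chr12:56613285-56613534, and the Nkx2-2 and Nkx2-4 windows are chr2:147186403-147186652 and chr2:147085346-147085595, all on the minus strand. These coordinates are of another build than the peaks, so no peak was placed on them.
Nkx2-1: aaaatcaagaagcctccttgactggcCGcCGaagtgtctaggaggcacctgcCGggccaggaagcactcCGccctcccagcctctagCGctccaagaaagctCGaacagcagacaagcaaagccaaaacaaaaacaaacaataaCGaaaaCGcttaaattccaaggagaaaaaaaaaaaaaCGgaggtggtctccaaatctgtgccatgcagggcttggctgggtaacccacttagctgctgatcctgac
Nkx2-9: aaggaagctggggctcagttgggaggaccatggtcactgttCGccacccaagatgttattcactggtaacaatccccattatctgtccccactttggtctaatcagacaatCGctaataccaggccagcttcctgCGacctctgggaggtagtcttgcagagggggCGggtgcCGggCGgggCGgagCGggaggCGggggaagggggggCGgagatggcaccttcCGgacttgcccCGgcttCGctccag
Nkx2-2: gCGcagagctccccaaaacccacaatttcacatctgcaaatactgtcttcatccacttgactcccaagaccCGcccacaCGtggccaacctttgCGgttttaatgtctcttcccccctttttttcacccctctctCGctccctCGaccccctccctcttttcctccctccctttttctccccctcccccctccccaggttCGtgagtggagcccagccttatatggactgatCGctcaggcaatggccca
Nkx2-4: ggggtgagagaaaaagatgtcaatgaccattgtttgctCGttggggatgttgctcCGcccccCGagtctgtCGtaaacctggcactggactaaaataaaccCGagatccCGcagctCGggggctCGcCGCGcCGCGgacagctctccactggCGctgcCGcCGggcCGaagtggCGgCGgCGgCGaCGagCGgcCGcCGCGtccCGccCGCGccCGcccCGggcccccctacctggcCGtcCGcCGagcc

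The CpG content differed widely among the family. Nkx2-4, a close relative of Nkx2-1, had 33 CG dinucleotides in 250 bases, and Nkx6-1 had 30. Nkx3-2 had 21, Nkx2-3 had 14, Nkx2-9 had 13 and Nkx2-1 had 9, whereas Nkx2-2 and Nkx2-5 had 8 each. CG reads the same on both strands, and 92.1% of all 32841 windows held at least 1. The median window held 6 (interquartile range 2 to 16). All 8 Nkx windows had more than the median, as did 46.3% of all windows. The 3 richest were above the upper quartile, beside 23.5% of all windows. At least as many CG dinucleotides as in the Nkx2-4 window were found in 4.03% of all windows, and as in the Nkx2-2 window in 43.0%. GC content ran from 49.2% for Nkx2-5 to 70.4% for Nkx2-4. The order by CpG content was not the order by peak width: the widest EZH2 peak lay at Nkx2-1, with 9 CG, and the narrowest at Nkx2-9, with 13. CpG beyond these 250 bases, and so over most of the peaks, was not counted. A relation between CpG content and peak width was not tested.

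**Figure D1:**
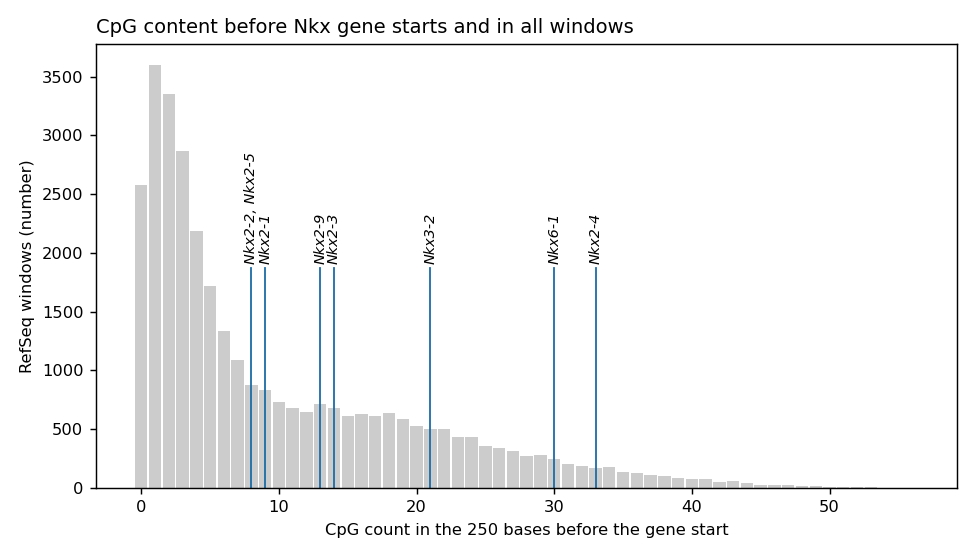
Grey bars give the number of RefSeq windows (y axis) with each count of CG dinucleotides in the 250 bases before the gene start (x axis), and blue lines mark the 8 Nkx windows. The Nkx windows run from 8 to 33 CG, and Nkx2-4, Nkx6-1 and Nkx3-2 stand apart from the other 5.

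EZH2 and H3K27me3 were called at 8 of the 10 genes, and FLAG at 7. The genes were chosen with earlier results of these data known. Gene annotation of build mm9 was not used, so no share over all genes stands beside these counts. Nkx2-1, Nkx2-2, Nkx2-3, Nkx2-4, Nkx2-5, Nkx3-2 and Nkx6-1 carried all 3 signals. Nkx2-9 carried EZH2 and H3K27me3 without FLAG. Nkx2-6 and Nkx6-3 had no interval of any list. No interval was shared by 2 genes, and the 24 intervals formed 8 separate sites on 5 chromosomes. Over all 3 lists, 34.1% of 1175 sites held all 3 signals. The listed positions are rounded, and 6 of the 10 fell inside an EZH2 peak.

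**Figure D2:**
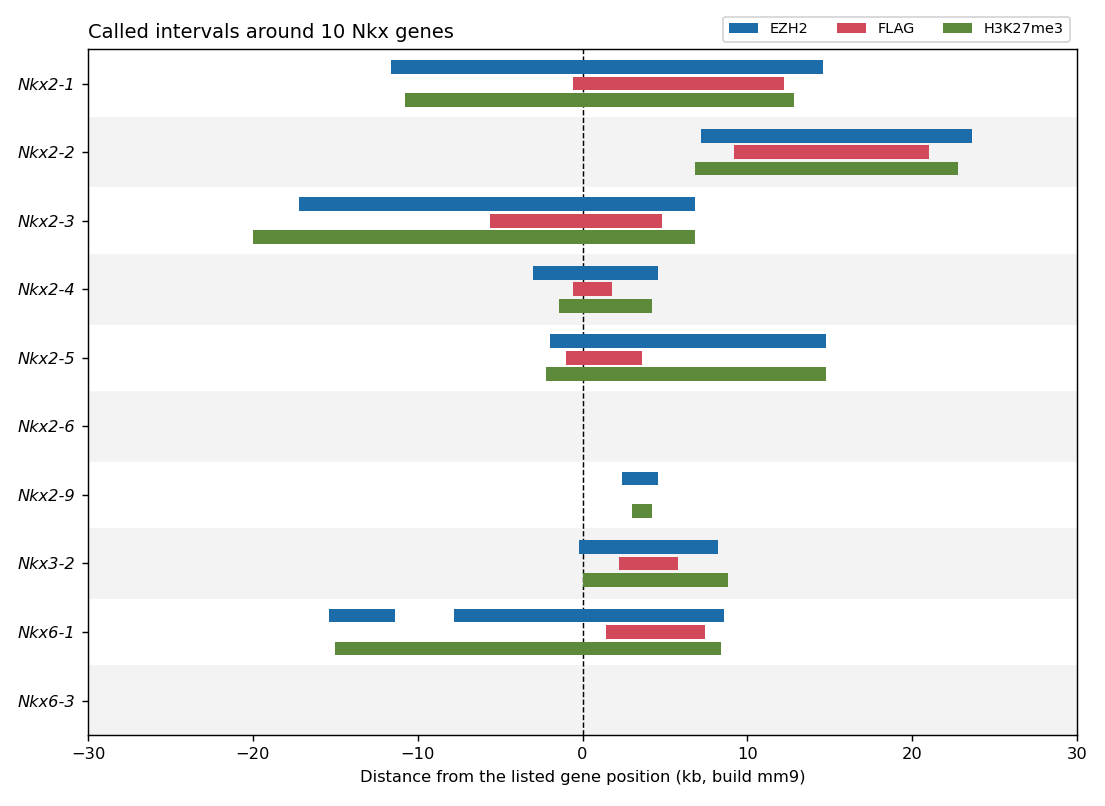
Bars show every called interval within 30 kb of the listed position of each gene (dashed line, x axis in kb of build mm9), with EZH2 in blue, FLAG in red and H3K27me3 in green on separate levels. FLAG bars lie inside EZH2 bars at 7 genes, Nkx2-9 has no FLAG, and the rows of Nkx2-6 and Nkx6-3 are empty.

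The neighbours Nkx2-1 and Nkx2-9 on chromosome 12 carried the widest and the narrowest EZH2 peak of the family. At Nkx2-1, EZH2 was called from 57618401 to 57644599, a peak of 26199 bp that was at least as wide as 98.7% of all EZH2 peaks. H3K27me3 spanned 57619201 to 57642799 (23599 bp) there, and FLAG spanned 57629401 to 57642199 (12799 bp), the widest Nkx FLAG peak. Nkx2-9, a factor of the ventral neural tube, had an EZH2 peak from 57712401 to 57714599. Its 2199 bp is the narrowest width found anywhere in the EZH2 list. The H3K27me3 peak at Nkx2-9 ran from 57713001 to 57714199 (1199 bp), inside the EZH2 peak. EZH2 at Nkx2-1 was thus 11.9 times as wide as at Nkx2-9, and H3K27me3 was 19.7 times as wide. The EZH2 peaks of the 2 genes lay 67.8 kb apart, with no other EZH2 or H3K27me3 peak between them.

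Nkx2-2 and Nkx2-4 on chromosome 2 also differed, but both carried all 3 signals. Nkx2-2 specifies ventral neural cells and pancreatic islet cells. Its EZH2 peak ran from 147007201 to 147023599 (16399 bp) and its H3K27me3 peak from 147006801 to 147022799 (15999 bp). FLAG at Nkx2-2 ran from 147009201 to 147020999 (11799 bp), which took up 71.9% of the EZH2 width, the highest share among the Nkx genes. Nkx2-4 had EZH2 from 146907001 to 146914599 (7599 bp) and H3K27me3 from 146908601 to 146914199 (5599 bp). FLAG at Nkx2-4 was the narrowest of the family, at 2399 bp from 146909401 to 146911799. The peak at Nkx2-2 was 2.16 times as wide as at Nkx2-4 for EZH2, 2.86 times for H3K27me3 and 4.92 times for FLAG. A gap of 92.6 kb without any EZH2 peak separated their EZH2 peaks.

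Nkx2-3, a factor of gut mesoderm and spleen, had the widest H3K27me3 peak of the family. On chromosome 19 this peak ran from 43670001 to 43696799 (26799 bp), and EZH2 ran from 43672801 to 43696799 (23999 bp). FLAG there covered 10399 bp, from 43684401 to 43694799. Nkx2-5, the cardiac factor, had narrower peaks in all 3 lists. EZH2 on chromosome 17 ran from 26973001 to 26989799 (16799 bp), and H3K27me3 covered nearly the same stretch, from 26972801 to 26989799 (16999 bp). FLAG at Nkx2-5 spanned 4599 bp, from 26974001 to 26978599, or 27.4% of the EZH2 width, the lowest share at an Nkx site.

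Nkx3-2 and Nkx6-1 both lie on chromosome 5. At Nkx3-2, EZH2 ran from 42149801 to 42158199 (8399 bp), H3K27me3 from 42150001 to 42158799 (8799 bp) and FLAG from 42152201 to 42155799 (3599 bp). Nkx6-1 was the only one of the 8 genes with more than 1 EZH2 peak. Its larger EZH2 peak ran from 102082201 to 102098599 (16399 bp), and a smaller one of 3999 bp ran from 102074601 to 102078599, across a gap of 3601 bp. A single H3K27me3 peak from 102075001 to 102098399 (23399 bp) bridged that gap. FLAG was called in the larger EZH2 peak alone, from 102091401 to 102097399 (5999 bp). Of all 1126 H3K27me3 peaks, 3.82% met at least 2 EZH2 peaks, and Nkx6-1 held 1 of the 8 at Nkx genes. EZH2 was present at both Nkx peaks of H3K27me3 on chromosome 5, beside 49.0% of the 143 H3K27me3 peaks of that chromosome. That share was low beside the 71.7% of all 1126 H3K27me3 peaks. Both Nkx peaks were also wider than the list median of 4599 bp.

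The smaller Nkx6-1 peak was also the member farthest from its listed position, at 11.4 kb. The nearest intervals outside the 30 kb windows were an EZH2 peak of 8599 bp on chromosome 8, from 24082001 to 24090599, and an H3K27me3 peak with the same end, at 169 kb from the position of Nkx6-3, a gene of the stomach epithelium and hindbrain. Nkx2-6, a gene of the pharyngeal endoderm, was farther from any peak. Its nearest EZH2, FLAG and H3K27me3 peaks lay 1044, 1047 and 1045 kb away. The absence of a called peak sets no upper limit on the signal, because call thresholds were not given in the sources used here.

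Most Nkx peaks were wide for their list. The median EZH2 width was 16399 bp over the 9 Nkx peaks, from 2199 to 26199 bp, beside 5199 bp over all 902. For H3K27me3 the median was 16499 bp over 8 peaks, from 1199 to 26799 bp, beside 4599 bp over all 1126. The 7 FLAG peaks had a median of 5999 bp, from 2399 to 12799 bp, beside 3999 bp over all 438. Above the upper quartile of their list were 6 of 9 EZH2 peaks (25.1% of all), 5 of 8 H3K27me3 peaks (25.0% of all) and 3 of 7 FLAG peaks (24.4% of all). Nkx2-9 and the smaller Nkx6-1 peak were the 2 EZH2 peaks below the list median. The Nkx peaks made up 0.998% of EZH2 peaks and 1.96% of EZH2-covered bases. For FLAG the corresponding shares were 1.60% and 2.33%, and for H3K27me3 0.710% and 1.32%.

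**Figure D3:**
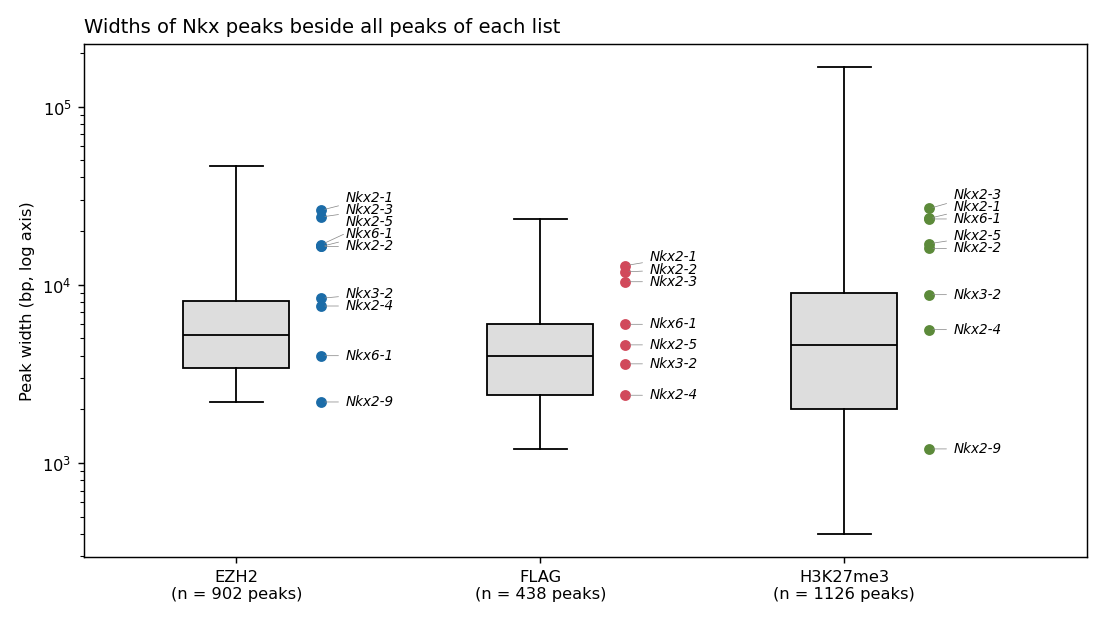
Boxes give the width of all peaks of each list in bp on a log axis (line, median; box, quartiles; whiskers, lowest and highest), and coloured points give the Nkx peaks beside them. Nkx2-1, Nkx2-2 and Nkx2-3 lie above the upper quartile in all 3 lists, whereas Nkx2-9 lies below the lower quartile of EZH2 and of H3K27me3.

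FLAG was called in most Nkx EZH2 peaks, and over the whole list it was far more common in wide EZH2 peaks than in narrow ones. FLAG overlapped 7 of the 9 Nkx EZH2 peaks (77.8%), beside 45.5% of all EZH2 peaks. It overlapped 7 of the 8 Nkx H3K27me3 peaks (87.5%), beside 36.1% of all H3K27me3 peaks. The 2 lists with the most peaks met each other at every Nkx site. All 9 EZH2 peaks overlapped H3K27me3 (95.2% of all EZH2 peaks did), and all 8 H3K27me3 peaks overlapped EZH2 (71.7% of all H3K27me3 peaks did). The Nkx H3K27me3 peaks were wide, with a median of 16499 bp beside 4599 bp over their list. Shares of H3K27me3 peaks were not compared at like width, so these contrasts are not separated from width. By site, FLAG was present at 7 of the 8 Nkx sites with EZH2, beside 47.2% of all 850. No EZH2 peak with FLAG was under 3599 bp in the list, and from that width upward FLAG was present at 7 of 8 Nkx peaks, beside 61.5% of all 667. The 7 Nkx EZH2 peaks with FLAG were at least 7599 bp wide, and of all EZH2 peaks at least as wide 87.5% had FLAG. The 2 without FLAG were at most 3999 bp wide, and of all EZH2 peaks up to that width 0.977% had FLAG. These 2 limits are the widths of the narrowest Nkx EZH2 peak with FLAG and of the widest without it, so the Nkx counts on either side are fixed by the choice and nothing is read from them.

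Inside the EZH2 peaks, the FLAG peak was nearly centred at 3 genes, and at 4 EZH2 reached much farther beyond it on one side than on the other. All 7 Nkx FLAG peaks overlapped EZH2 and lay whole inside the EZH2 peak, as did 96.6% of all FLAG peaks. All 7 overlapped H3K27me3 (98.6% of all FLAG peaks did) and lay whole inside it (98.2% of all did). At Nkx3-2, EZH2 reached 2400 bp beyond FLAG on both sides, and the midpoints coincided. At Nkx2-4 EZH2 reached 2400 bp beyond FLAG on the side of lower coordinates and 2800 bp on the other, and at Nkx2-2 it reached 2000 and 2600 bp. These 3 genes had midpoints at most 300 bp apart. At Nkx2-1 the same distances were 11000 and 2400 bp, at Nkx2-3 11600 and 2000 bp, and at Nkx6-1 9200 and 1200 bp. By coordinate, Nkx2-5 was skewed the other way, with 1000 bp on the side of lower coordinates and 11200 bp on the other. By strand the grouping differs, since Nkx2-3 is on the plus strand and Nkx2-1, Nkx2-5 and Nkx6-1 are on the minus strand. The longer side lay in the upstream direction at Nkx2-3 and Nkx2-5, and in the downstream direction at Nkx2-1 and Nkx6-1. The FLAG and EZH2 midpoints were 4300 bp apart at Nkx2-1, 4800 bp at Nkx2-3, 5100 bp at Nkx2-5 and 4000 bp at Nkx6-1.

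Midpoints this far apart were rare in the lists as a whole, but narrow EZH2 peaks leave no room for such a distance. In 399 cases 1 EZH2 peak met exactly 1 FLAG peak, and in these pairs the median distance between midpoints was 400 bp (interquartile range 200 to 700 bp). It was at least 4000 bp in 7 pairs (1.75%), of which 4 were those of Nkx2-1, Nkx2-3, Nkx2-5 and Nkx6-1. All 7 were in EZH2 peaks of at least 16399 bp, where they made up 13.0% of 54 pairs and where the median distance was 950 bp. The share of 1.75% thus also counts pairs too narrow to reach 4000 bp. As a share of the room that the EZH2 peak left for FLAG, the displacement was 64.2% at Nkx2-1, 70.6% at Nkx2-3, 83.6% at Nkx2-5 and 76.9% at Nkx6-1. It reached 50% in 12.8% of all pairs and in 24.1% of the pairs in EZH2 peaks of at least 16399 bp. Nkx2-2, with an EZH2 peak of exactly that width, had 13.0%. The limits of 4000 bp, 50% and 16399 bp were set after the Nkx values were seen, the first and last being values of Nkx6-1, and no test was made.

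**Figure D4:**
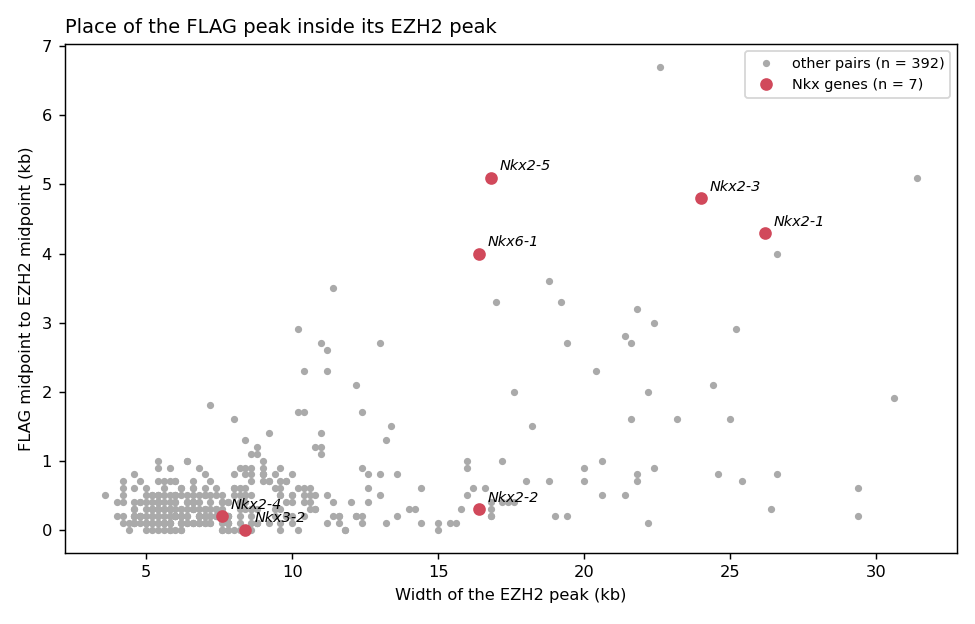
Each point is a pair in which 1 EZH2 peak met exactly 1 FLAG peak, with the EZH2 width in kb (x axis) and the distance between the 2 midpoints in kb (y axis), with the 7 Nkx pairs in red and the other 392 in grey. Nkx2-1, Nkx2-3, Nkx2-5 and Nkx6-1 lie between 4 and 5.1 kb, and Nkx2-2, Nkx2-4 and Nkx3-2 at most 0.3 kb.

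FLAG took up a smaller part of the EZH2 bases at most Nkx sites than at the median site. The share was 48.9% at Nkx2-1, 43.3% at Nkx2-3, 42.9% at Nkx3-2, 31.6% at Nkx2-4 and 29.4% at Nkx6-1, where both EZH2 peaks count. With Nkx2-2 and Nkx2-5 the median of the 7 sites was 42.9% (27.4 to 71.9%). Over all 401 sites with 3 signals the median was 49.99% (interquartile range 35.5 to 64.6%), and over the 233 with at least 7599 bp of EZH2, the least at an Nkx site with FLAG, it was 57.1% (40.3 to 68.3%). Of the 7 Nkx sites, only Nkx2-2 was above both medians. For sites of at least 16399 bp of EZH2 the median was 43.3% over 5 Nkx sites. Over all 68 such sites it was 53.1%, with a wide interquartile range of 30.1 to 72.1%.

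H3K27me3 covered nearly as many bases as EZH2, or more, at most Nkx sites, but clearly fewer at Nkx2-4 and Nkx2-9. The ratio of H3K27me3 to EZH2 bases was 0.901 at Nkx2-1, 0.976 at Nkx2-2, 1.12 at Nkx2-3, 1.01 at Nkx2-5, 1.05 at Nkx3-2 and 1.15 at Nkx6-1. The lowest values were 0.737 at Nkx2-4 and 0.545 at Nkx2-9, the narrower site of each neighbouring pair. H3K27me3 covered more bases than EZH2 at 4 of 8 Nkx sites, beside 24.9% of all 807 sites with both signals. Among sites with at least 7599 bp of EZH2 these counts were 4 of 7, beside 35.9% of 259. Nkx6-1 is in both counts only because the 3601 bp gap between its EZH2 peaks is not counted as EZH2. With the gap, EZH2 there spanned 23999 bp, beside 23399 bp of H3K27me3, which ended inside EZH2 at both outer edges. At Nkx2-5 and Nkx3-2 the excess was small for a calling grid of 200 bp. H3K27me3 covered 16999 bp beside 16799 bp of EZH2 at Nkx2-5, and 8799 bp beside 8399 bp at Nkx3-2. Excesses of any size were counted, at Nkx sites as over all sites. The median ratio was 0.994 over the 8 Nkx sites and 0.909 over all sites (interquartile range 0.762 to 1.00). With peaks within 5 kb joined, these medians were 0.975 and 0.909. Without joining, the median ratio for sites of at least 7599 bp of EZH2 was 1.01 at Nkx genes and 0.966 over all. For sites of at least 16399 bp it was 1.01 and 0.990.

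Most outer edges of H3K27me3 lay inside those of EZH2, at the Nkx sites as over all sites, on the calling grid of 200 bp. H3K27me3 ended inside EZH2 at 10 of the 16 outer edges of the Nkx sites, at the same base at 2 and beyond it at 4 (20.8% of 1614 edges over all sites). The largest extension was 2800 bp at the lower edge of Nkx2-3, followed by 600 bp at the upper edge of Nkx3-2, 400 bp at the lower edge of Nkx2-2 and 200 bp at the lower edge of Nkx2-5. The deepest retreat was 1800 bp at the upper edge of Nkx2-1, a signed distance of -1800 bp. The median signed distance was -300 bp for the Nkx edges (interquartile range -650 to 50 bp) and -400 bp for all edges (-600 to 0 bp). By these values the Nkx edges were much like those of the whole list.

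**Figure D5:**
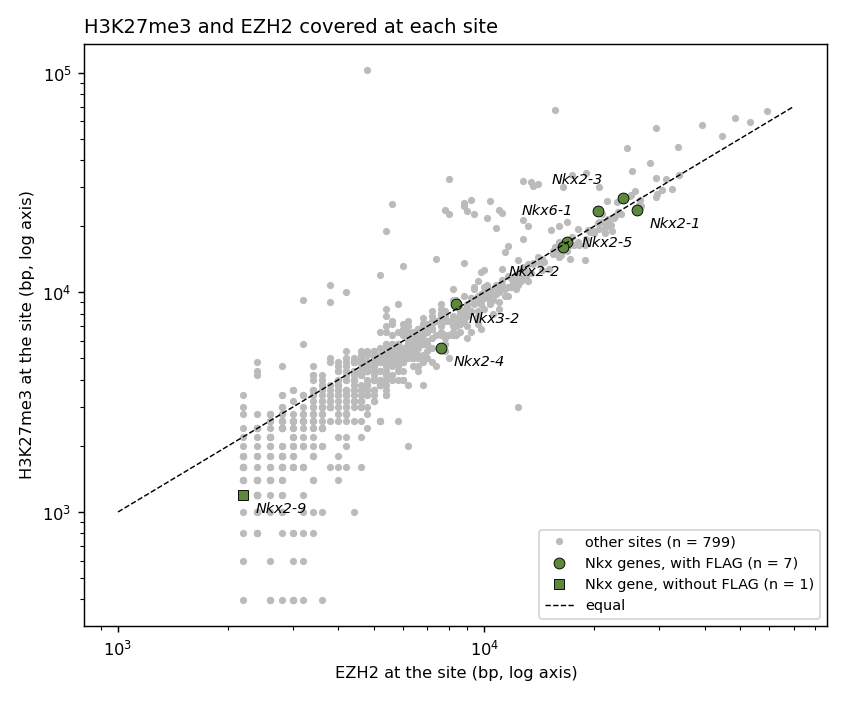
Each point is a site with both signals, with the EZH2-covered bases (x axis, log) and the H3K27me3-covered bases (y axis, log) in bp, and the dashed line marks equal values. Nkx2-3, Nkx2-5, Nkx3-2 and Nkx6-1 lie above the line, the other 4 Nkx sites lie below it, and Nkx2-9 (square) is the Nkx site without FLAG. At Nkx6-1 the gap between its EZH2 peaks is not counted as EZH2.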

How the data were processed

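Peak lists of 3 libraries were used, 1 per antibody, and groups were taken from the sample titles. Tools named in the submitters' processing notes are Bowtie 1.0.0 and deepTools, with build mm9. The peak caller, its thresholds and any control library were not given in the sources used here. In the lists as deposited, each peak has a start and an end in bp and no score. All starts are multiples of 200 bp, and printed starts are counted from 1. Widths are the deposited end minus the deposited start.

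The 10 genes and their positions, and the lists compared, were chosen with earlier results of these data known. All 10 genes are named. Gene annotation of build mm9 was not used, so the peaks were not assigned to exons, introns or promoters, and other Nkx genes were not analysed here. Peaks of 2 lists overlapped where they shared at least 1 bp, and sites are chains of overlapping peaks. Shares over the Nkx peaks stand beside the same shares over the whole lists, without a test, because the members were chosen and neighbouring peaks are not independent. The interval functions were tested on simulated lists with a known number of overlaps, which they returned. CpG counts used the first 250 bases of each RefSeq promoter window. Proteins were not analysed here. Python 3.11.15, SciPy 1.17.1 and Matplotlib 3.10.9 were used.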

Additional observations from a re-analysis of the deposited data

How the results depend on the processing

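None of the 18 results left the range set for it under any of 96 alternatives, but most of these ranges are too wide to show stability. That range was 1.5 times for a count, the exact 95% binomial interval for a share (40.0 to 97.2% for FLAG at Nkx EZH2 peaks) and the order-statistic interval for a median. The intervals rest on 7 to 9 peaks and treat them as independent, which neighbouring peaks are not. A window of 10 kb gave 23 intervals, since the smaller Nkx6-1 EZH2 peak dropped out, and the FLAG share of Nkx EZH2 peaks became 87.5%. Windows of 50 and 100 kb added no interval, although at 100 kb the windows of neighbouring genes overlap, so that 8 genes counted FLAG. Without the narrowest quartile of each list 21 intervals were left and 6 genes had all 3 signals, because the Nkx2-9 peaks and the Nkx2-4 FLAG peak were removed. The median FLAG width then rose to 8199 bp. Of 4 alternatives chosen after seeing the data, restricting to EZH2 peaks of at least 3599 bp, the narrowest with FLAG, gave a FLAG share of 87.5% at Nkx genes and 61.5% over the list. Counting sites gave 87.5% and 47.2%. Leaving out chromosome 5 gave 83.3% and 44.6%. The share of Nkx H3K27me3 peaks with EZH2 was 100% in all alternatives, beside 75.0% of the list without chromosome 5. No paired analysis was possible because each group has 1 library. Depth is unknown, so no result could be set against it.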
